A study of Mus musculus with 2 samples.

Results

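Brd7, Pbrm1, Arid2 and Phf10 encode the subunits that set the PBAF form of the SWI/SNF chromatin remodelling complex apart from its other forms, and all 4 were found among the 32285 genes counted in whole cerebella of mouse embryos. SWI/SNF complexes use the energy of ATP to move nucleosomes, and the ATPase is SMARCA4 or SMARCA2. In PBAF, PBRM1 (polybromo) carries a row of bromodomains that read acetylated histones, ARID2 holds the complex together and binds DNA, PHF10 brings PHD fingers, and BRD7 is a single-bromodomain protein that is also known as a p53 cofactor and as a partner of dishevelled. The 4 genes were chosen on these same libraries after Brd7, unlike its partners, had been seen to stand high in the mutant and to follow Nkd1, its neighbour on chromosome 8. The level of Brd7 and its link to Nkd1 in the mutant library are therefore given as descriptions. Nkd1 encodes naked cuticle 1, a dishevelled-binding protein that dampens Wnt signalling and is itself a widely used readout of canonical Wnt activity.

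The mutant embryos carried Blbp-cre together with a Ctnnb1(ex3)fl/wt allele pair and Smarca4fl/fl, and the control embryos were cre-negative, all at age E16.5. Blbp-cre acts in neural progenitors such as radial glia, loss of Ctnnb1 exon 3 stabilises beta-catenin, and Smarca4 is removed where the cre acts. Which floxed alleles the control embryos held is not stated in the labels used here. Whole cerebella were dissociated, dead cells were sorted out, and 3 samples were pooled into each library, for which 40000 cells were used. With 1 library per genotype there is no replicate, no test was made, and every interval below is a 95% interval that covers counting error only.

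The kept cells numbered 15586 in the mutant library and 15793 in the control library, with medians of 9641 and 9963 unique molecular identifiers (UMIs, each marking 1 captured transcript). Haemoglobin transcripts made up 8.86% of the kept UMIs of mutant cells and 7.57% of those of control cells, and 61 of the kept barcodes occurred in both libraries. Smarca4 stood at 49.2 CPM (counts per 1000000 UMIs) in mutant cells, against 67.9 in control cells. Because the 3′ reads need not lie in the deleted exons, this level does not check recombination. The cells formed 34 clusters, and 7 of these are called mutant-dominated below because their percentage of mutant cells was 5 or more times their percentage of control cells. They held 8628 mutant cells (55.4%) and 199 control cells (1.26%).

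Summed over each library, Brd7 alone of the 4 subunits differed by 1.5-fold or more. Brd7 gave 49040 UMIs in mutant cells, or 292 CPM, against 15127 UMIs and 87.6 CPM in control cells. That is a ratio of 3.33 (3.27 to 3.39), which ranked 176 from the top among 9789 genes with at least 10 CPM in either library. Pbrm1 had 188 CPM in mutant cells, against 191 in control cells, a ratio of 0.987 (0.972 to 1.0). Arid2 had 81.5 CPM in mutant cells, against 75.2 in control cells, a ratio of 1.08 (1.06 to 1.11). Phf10 had 20.7 CPM in mutant cells, against 19.0 in control cells, a ratio of 1.09 (1.04 to 1.15). So 1 of 4 subunits was higher by 1.5-fold or more and none was lower by as much, where 8.55% of the 9789 genes were higher and 6.35% lower by that size, and 2.29% were higher by 3-fold or more. All 4 genes passed the minimum of 10 CPM in both libraries.

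More cells held Brd7 in the mutant library, and more held several UMIs of it. In cells thinned at random to 3000 UMIs each, 45.5% of 13578 mutant cells and 22.6% of 13411 control cells held a Brd7 UMI. Cells with 3 or more Brd7 UMIs made up 11.9% of mutant cells and 0.328% of control cells. The other subunits showed no such shift. Pbrm1 was detected in 40.7% of mutant and 41.7% of control cells, Arid2 in 21.4% and 19.7%, and Phf10 in 5.49% and 5.38%.

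The other SWI/SNF genes differed less than Brd7. Of 24 other subunits, 23 had at least 10 CPM in a library, and 2 of these were higher in mutant cells by 1.5-fold or more while none was lower by as much, next to the 8.55% and 6.35% of all genes given above. Their median log2 ratio was 0.23, against 0.03 over all 9789 genes. The 2 were Dpf1, a subunit of the neuronal BAF complex, with 13.6 CPM in mutant cells, against 4.82 in control cells, and Smarcd3, with 36.0 CPM, against 18.7. Smarca2, the alternative ATPase, followed with 126 CPM in mutant cells, against 84.1 in control cells, a ratio of 1.495 (1.46 to 1.53). Dpf3 had a ratio of 1.42 and Ss18l1 a ratio of 1.38, and Bcl7c, a small core subunit, was lower at 0.730. Brd9, the bromodomain subunit of the non-canonical complex and the closest counterpart of Brd7, had 55.6 CPM in mutant cells, against 63.1 in control cells, a ratio of 0.882 (0.858 to 0.907).

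**Figure D1:**
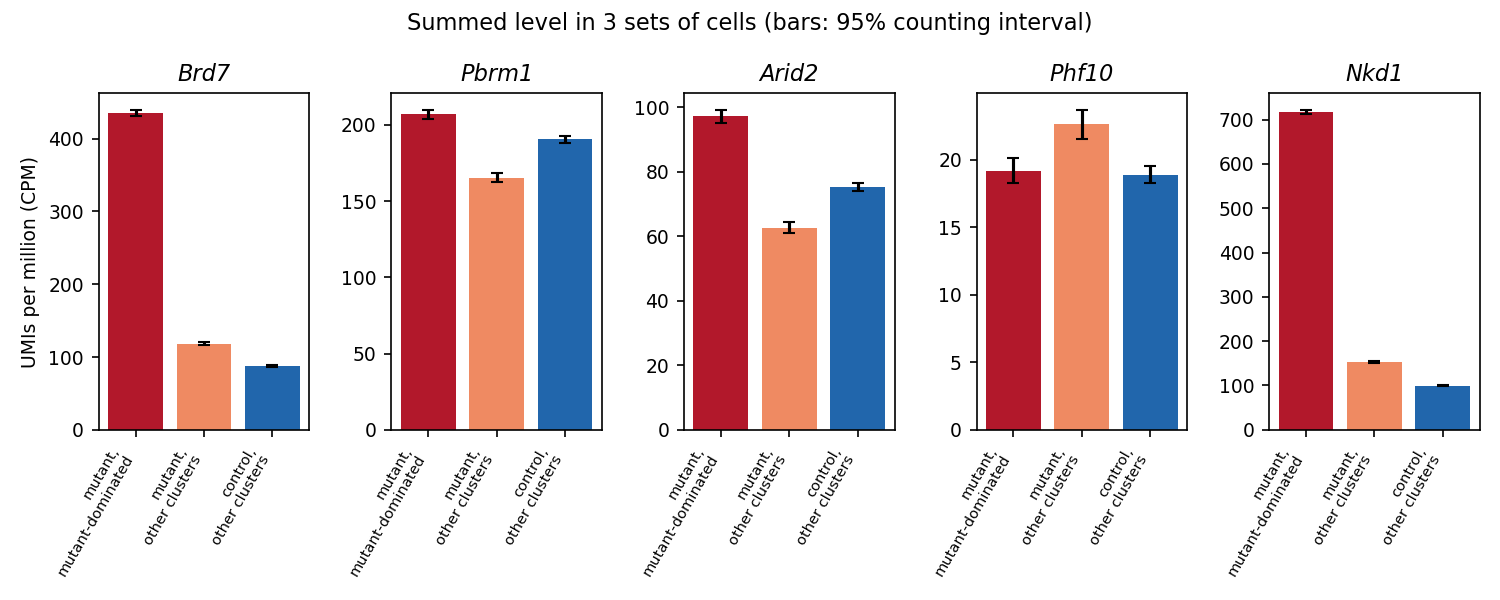
Summed level in CPM of the 4 PBAF subunits and Nkd1 in mutant cells of mutant-dominated clusters, mutant cells of the other clusters and control cells of the other clusters, with 95% Poisson intervals. Brd7 and Nkd1 are high in the first set (436 and 717 CPM), Pbrm1 and Arid2 are lowest in the middle set (165 and 62.6 CPM), and Phf10 is highest there (22.6 CPM).

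Within the mutant, Brd7 was concentrated in the mutant-dominated clusters. It had 436 CPM there and 118 CPM in the other mutant cells, a ratio of 3.68 (3.6 to 3.77). Arid2 was 1.55-fold and Pbrm1 1.25-fold higher in the mutant-dominated clusters, and Phf10 was 0.848-fold. In the clusters that were not mutant-dominated, Brd7 had 118 CPM in mutant cells, against 87.7 in control cells, a ratio of 1.35 (1.31 to 1.39). There Pbrm1 was lower in mutant cells, at 165 CPM against 190 in control cells, and Arid2 was lower at 62.6 CPM against 75.1, so the direction of Arid2 over the whole library turned. Phf10 was at 22.6 CPM in mutant cells, against 18.9 in control cells. Nkd1 was at 153 CPM in mutant cells, against 99.9 in control cells. Smarca4 was at 51.8 CPM in mutant-dominated clusters and 46.2 CPM in the other mutant cells, against 67.9 in control cells. Wif1, a secreted Wnt inhibitor, was at 46.2 CPM in mutant cells outside the mutant-dominated clusters, against 2.21 in control cells. The part of RNA from other cells in the 1.35-fold ratio of Brd7 was not tested.

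Not every mutant-dominated cluster was high in Brd7. The highest level was 700 CPM (684 to 717), in the cluster led by Pycr1 and Lgr6. The cycling cluster led by histone and mitotic genes and the cluster led by Neurog2 and Hand2 followed, at 534 and 533 CPM. Their intervals (519 to 549 and 523 to 544) overlap, so these neighbours in the order do not differ beyond counting error. The cluster led by Hpse2 and Gdf10 had 466 CPM and that led by Fstl4 had 383 CPM. The remaining pair stood far lower: the cluster led by Ndst4 and Tfap2d had 78.3 CPM and that led by Cnmd and Nr2e1 had 103 CPM. Nkd1 was likewise high in the same 5 clusters, with 1246 CPM in the Pycr1 and Lgr6 cluster, 949 CPM in the Neurog2 cluster, between 720 and 723 CPM in the 3 others that were high in Brd7, and low in the clusters led by Ndst4 (39.8 CPM) and by Cnmd (54.9 CPM). Over the same 7 clusters Pbrm1 ranged between 174 and 239 CPM, Arid2 between 56.9 and 118 CPM, and Phf10 between 11.8 and 28.6 CPM.

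In the control library no cluster of at least 50 cells came near these Brd7 levels. The highest was 122 CPM, in the oligodendrocyte precursor-like cluster, and the median of 28 clusters was 76.9 CPM. Control clusters did vary in Nkd1. The pair of clusters led by Nts, which held the most Nkd1 (218 and 211 CPM), were also next highest in Brd7, at 114 CPM (108 to 121) and 113 CPM (108 to 118), with intervals that overlap that of the highest cluster (111 to 133). The cluster led by Gsc and Eomes, with 197 CPM of Nkd1, had 71.6 CPM of Brd7, below the median.

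In 25 clusters with at least 50 cells of each library, the mutant over control ratio of Brd7 had its interval above 1 in 20 and below 1 in none, with a median of 1.35. The count was 5 above and 5 below for Pbrm1, 5 and 3 for Arid2, and 3 and 0 for Phf10. It was 21 and 1 for Nkd1, 25 and 0 for Wif1, 18 and 1 for Lef1, 17 and 0 for Axin2, and 1 and 10 for Smarca4. A rise in most clusters was therefore not particular to Brd7, and such counts were not made over all genes. The vessel and meningeal classes were among the 5 clusters whose Brd7 interval held 1. Endothelial-like cells had 106 CPM in the mutant, against 99.4 in the control (ratio 1.07, 0.871 to 1.32), and fibroblast-like cells had 82.6 CPM, against 77.6 (1.06, 0.884 to 1.28). Pericyte-like cells had 82.1 CPM in the mutant, against 69.0 in the control (1.19, 0.948 to 1.5). The interval also held 1 in the unnamed cluster led by Pou4f3 and Lhx2, at 92.3 CPM, against 78.7 (1.17, 0.975 to 1.42). Microglia-like cells, which do not descend from neural progenitors, had 103 CPM in the mutant, against 76.7 in the control (1.35, 1.04 to 1.74), and their Nkd1 was at 68.9 CPM, against 13.9. Oligodendrocyte precursor-like cells had 173 CPM of Brd7, against 122 (1.41, 1.21 to 1.65), and unipolar brush cell-like cells 114 CPM, against 77.1 (1.48, 1.31 to 1.67).

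The largest ratio came from a mixed cluster. The erythroid-like cluster had 138 CPM of Brd7 in the mutant, against 14.0 in the control, a ratio of 9.83. Haemoglobin made up a median of 51.7% of UMIs in its 797 mutant cells and 91.2% in its 338 control cells, and 394 mutant and 91 control cells lay under 50%. Among mutant cells of the cluster under 50% haemoglobin, Brd7 stood at 411 CPM and Nkd1 at 924 CPM of the UMIs that were not haemoglobin, against 81.5 and 63.2 in such control cells. Cells with at least 80% haemoglobin gave 150 CPM (116 to 191) of Brd7 on that scale in 328 mutant cells, against 32.2 (15.4 to 59.1) in 230 control cells. On the same scale Nkd1 gave 268 CPM, against 35.4, and Pbrm1 122 CPM, against 77.2. The UMIs behind the Brd7 values were 65 in the mutant and 10 in the control. The intervals of Brd7 did not overlap between the libraries in these cells, and the part of free RNA or mixed droplets in these values and in the cluster ratios was not tested.

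**Figure D2:**
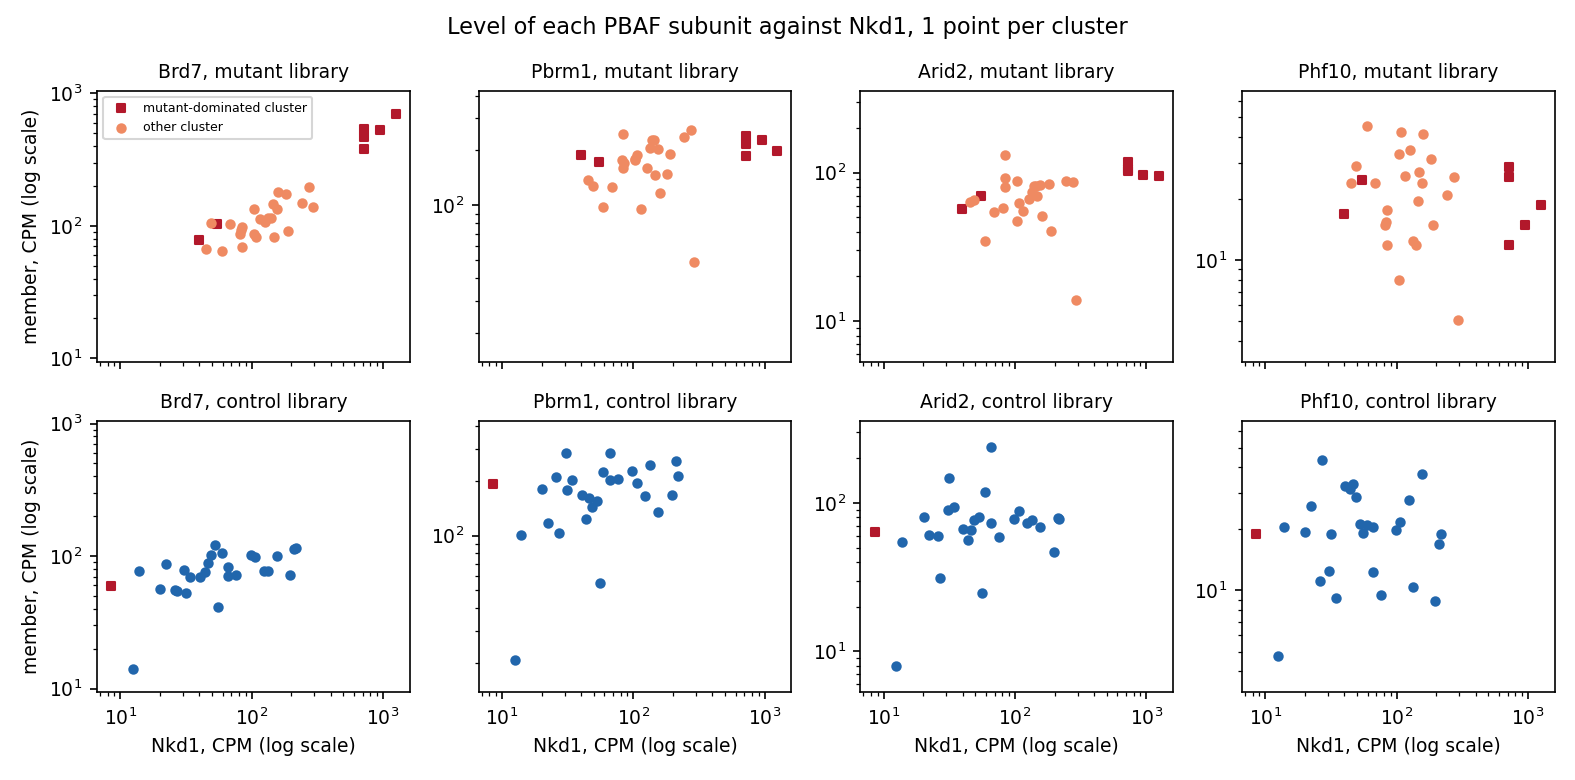
Level of each PBAF subunit against that of Nkd1, both in CPM on log scales, with 1 point per cluster of at least 50 cells in the mutant library (top row, 31 clusters) and the control library (bottom row, 28 clusters). Brd7 rises with Nkd1 across mutant clusters, where 5 mutant-dominated clusters lie at 383 to 700 CPM, while Pbrm1 stays within 174 to 239 CPM over all 7 mutant-dominated clusters.

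Across clusters, the log2 levels of Brd7 and Nkd1 had a Pearson correlation of 0.92 over 31 clusters of the mutant library and 0.55 over 28 clusters of the control library, with Spearman values of 0.82 and 0.56. In the mutant the correlation with Nkd1 was 0.26 for Pbrm1, 0.29 for Arid2 and -0.16 for Phf10, and in the control it was 0.40, 0.28 and 0.05. The clusters of a library share its depth and its free RNA, so these values are descriptions. Without the erythroid-like cluster, a setting added after seeing the data, the mutant correlation with Nkd1 was 0.47 for Pbrm1 and 0.54 for Arid2, and the control one was 0.26 and 0.09. Pbrm1 went with Smarca4, with Pearson and Spearman values of 0.84 and 0.69 in the mutant and 0.92 and 0.84 in the control. For Arid2 and Smarca4 the Pearson value was 0.59 in the mutant and the Spearman value 0.11, and in the control they were 0.83 and 0.63. Brd7 and Smarca4 had Pearson and Spearman values of -0.02 and -0.06 in the mutant, and of 0.60 and 0.15 in the control. By Pearson, Brd7 in the control thus did not go with Nkd1 (0.55) more than with Smarca4, while by Spearman it did. The erythroid-like cluster was the lowest control cluster in both Brd7 (14.0 CPM) and Smarca4 (11.2 CPM). The correlation of Brd7 with Smarca4 was not recomputed without it.

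Over the 59 cluster profiles of both libraries together, the gene most like Brd7 among 9788 was Isoc1 (r = 0.85), and the second was Nkd1 (r = 0.84). The next were Fbxo34, Nap1l1 (a histone chaperone), Mtmr12, Vgll4 (a cofactor of TEAD factors), Qrfprl, Fzd10 (a frizzled receptor for Wnt ligands), Mybpc1 and Fst (follistatin, an inhibitor of activins), with correlations of 0.84 to 0.76. The Wnt feedback gene Axin2 ranked 13th and Wif1 14th. The other PBAF subunits lay lower in the same order, with Arid2 in place 1398, Pbrm1 in place 1758 and Phf10 in place 6540. Other SWI/SNF subunits were spread between place 89 (Smarcc1, r = 0.63) and place 9145 (Actl6b, r = -0.07). The profile of Pbrm1 was most like those of Acin1, Epc2 and Ncor1 (0.94 each), that of Arid2 most like Cop1, Mbtd1 and Kansl1 (0.96 to 0.94), and that of Phf10 most like Naf1, Sypl and Tmed10 (0.88 to 0.87). Nkd1 held place 6063 for Pbrm1, 6115 for Arid2 and 7340 for Phf10.

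**Figure D3:**
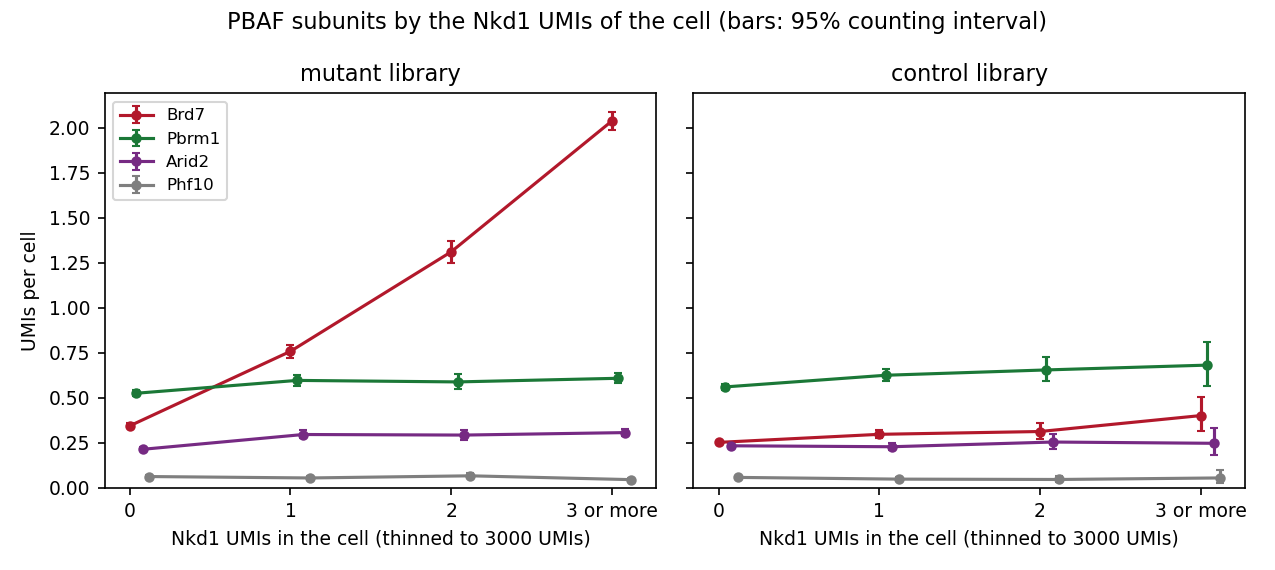
UMIs per cell of the 4 PBAF subunits in cells with 0, 1, 2 and 3 or more Nkd1 UMIs, all cells thinned to 3000 UMIs, with 95% Poisson intervals; the mutant library is on the left. Brd7 climbs to 2.04 UMIs per cell in the mutant and to 0.401 in the control, and Pbrm1 reaches 0.608 in the mutant and 0.681 in the control.

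Per cell, Brd7 increased with each step of Nkd1 in the mutant library. Mutant cells with 0, 1, 2 and 3 or more Nkd1 UMIs held 0.344, 0.758, 1.31 and 2.04 Brd7 UMIs per cell, and Brd7 was detected in 25.8%, 45.3%, 63.0% and 79.9% of them. Control cells in the same bins held 0.252, 0.297, 0.313 and 0.401 Brd7 UMIs per cell, with detection in 21.7%, 25.1%, 26.5% and 31.3%. In cells with 0, 1 or 2 Nkd1 UMIs, mutant cells held more Brd7 than control cells with the same count, and the intervals of the libraries did not overlap. The bin of 3 or more has no upper end and held 3163 mutant cells, against 182 control cells, so Nkd1 is not matched there. Pbrm1 in the same bins of the mutant held 0.525, 0.596, 0.588 and 0.608 UMIs per cell, and in the control 0.560, 0.625, 0.655 and 0.681. Arid2 in the mutant bins held 0.214, 0.296, 0.293 and 0.307 UMIs per cell, so that its step lay between cells with none and cells with 1, and in the control 0.233, 0.228, 0.254 and 0.247. Phf10 stayed between 0.0455 and 0.0667 UMIs per cell in the mutant bins and between 0.0464 and 0.0579 in the control bins.

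Mutant cells with at least 1 Nkd1 UMI (6859) held 1.46 Brd7 UMIs per cell and those with none (6719) 0.344, a ratio of 4.24 (4.05 to 4.44) and the 33rd highest of 9450 genes. The ratio was 1.4 (1.31 to 1.5) for Arid2, 1.14 (1.09 to 1.20) for Pbrm1 and 0.845 (0.732 to 0.974) for Phf10. Thus 1 of 4 subunits was at least 1.5-fold higher with Nkd1, where 6.41% of genes were, and the median gene had a ratio of 1.1. In the control library the ratios were 1.21 (1.13 to 1.31) for Brd7, 1.13 (1.07 to 1.19) for Pbrm1, 1.0 (0.922 to 1.09) for Arid2 and 0.835 (0.692 to 1.0) for Phf10. None reached 1.5-fold there, where 1% of genes did. Measured against each other in the mutant, the Brd7 ratio was 3.71 times that of Pbrm1 (3.48 to 3.95), 3.02 times that of Arid2 (2.78 to 3.27) and 5.02 times that of Phf10 (4.33 to 5.82). In the control it was 1.07 times that of Pbrm1 (0.979 to 1.18), an interval that holds 1, 1.21 times that of Arid2 (1.08 to 1.35) and 1.45 times that of Phf10 (1.20 to 1.77). The correlation over single cells between Brd7 and Nkd1 was 0.49 in the mutant and 0.05 in the control, and for each other subunit it lay between -0.03 and 0.05 in the mutant.

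Brd7 and Nkd1 were found together in 32.7% of mutant cells, where their separate shares would give 23.0% if they were unrelated. In control cells the share with both was 5.76%, against 5.05%. For Pbrm1 and Nkd1 the share was 21.5%, against 20.6%, in the mutant and 10.1%, against 9.34%, in the control.

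Within clusters the mutant ratio of Brd7 was smaller and still above those of its partners. The ratio was taken inside each cluster and combined over clusters. Brd7 was then 2.29-fold higher (2.16 to 2.42, rank 11 of 9450) in mutant cells with Nkd1 than in those without. It was 2.44-fold higher in mutant-dominated clusters and 1.97-fold in the others. The others include the mixed erythroid-like cluster, whose own ratio was 8.97, and no combined value was made without it. Over 27 mutant clusters with at least 20 cells on each side of the split, the median ratio was 1.51. Only 1.15% of genes reached 1.5-fold in the combined comparison within the mutant, and 0.0754% did in the control. The same ratio was 1.06 (1.0 to 1.12) for Pbrm1, 1.11 (1.02 to 1.21) for Arid2 and 0.915 (0.776 to 1.08) for Phf10. In the control library it was 1.13 (1.04 to 1.22) for Brd7, 1.03 (0.979 to 1.09) for Pbrm1, 0.989 (0.906 to 1.08) for Arid2 and 0.866 (0.717 to 1.05) for Phf10.

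Of 27 mutant clusters with at least 20 cells on each side of the split, Brd7 had a ratio above 1 in 25, with the interval above 1 in 9 and below 1 in none. The 9 included the 5 mutant-dominated clusters that were high in Brd7, with ratios of 2.78 in the Neurog2 cluster, 2.65 in the Fstl4 cluster, 2.61 in the Hpse2 cluster, 2.3 in the cycling cluster and 1.69 in the Pycr1 and Lgr6 cluster. In that last cluster 92.1% of cells had a Nkd1 UMI, and the 75 without one still held 1.33 Brd7 UMIs per cell. The mixed erythroid-like cluster was also among the 9. There all 4 subunits were higher in mutant cells with Nkd1. The ratios were 8.97 (6.77 to 12.1) for Brd7, 2.53 (1.70 to 3.82) for Pbrm1, 3.32 (1.53 to 7.79) for Arid2 and 5.54 (1.495 to 30.6) for Phf10. The thinned UMIs include haemoglobin. Before thinning, mutant cells of this cluster held 6498 other UMIs per cell under 50% haemoglobin and 1319 at 80% or more. The part of haemoglobin share in these 4 ratios was not tested, so they are not read as a link to Nkd1. In 19 control clusters Brd7 had a ratio above 1 in 13 and the interval held 1 in all 19. For Pbrm1 the interval was above 1 in 1 of 27 mutant clusters and for Arid2 in 3 of 27. For Phf10, which had few UMIs, it was above 1 in 5 and below 1 in 1.

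**Figure D4:**
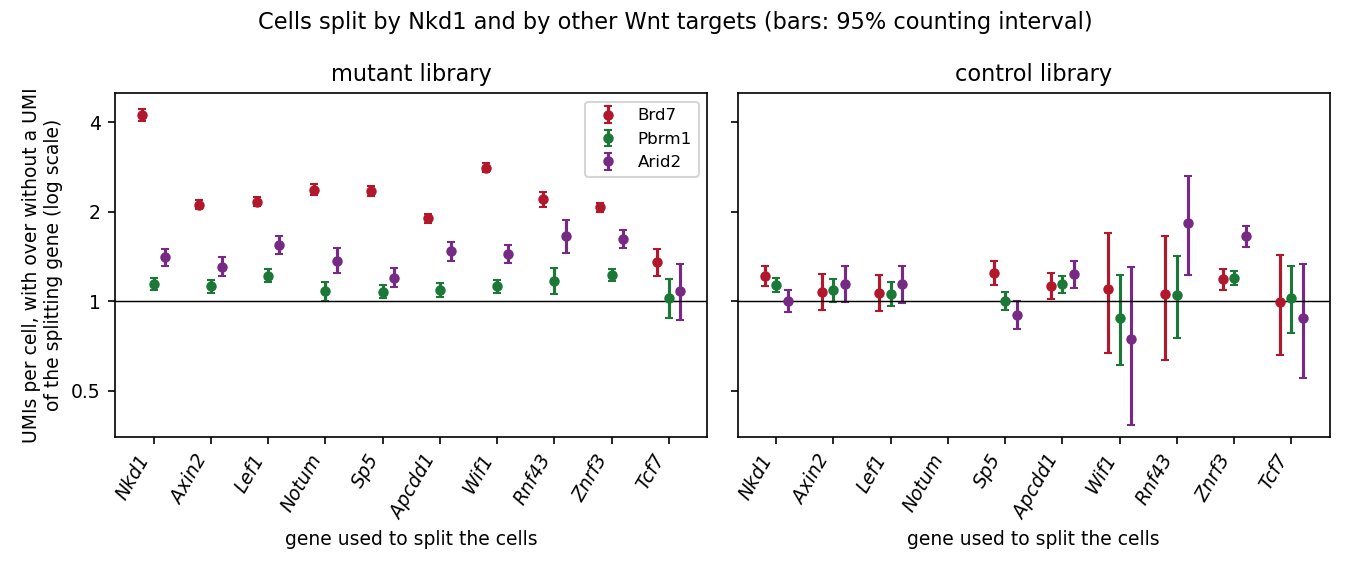
Ratio of UMIs per cell of Brd7, Pbrm1 and Arid2 between cells with and cells without a UMI of the gene on the horizontal axis, in the mutant library (left) and the control library (right), on a log scale with 95% intervals. Brd7 is above Pbrm1 and Arid2 for all 10 splitting genes in the mutant and highest for Nkd1 (4.24); Phf10 is not drawn; Notum had too few positive control cells to be shown there.

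In the mutant library, other Wnt targets in the place of Nkd1 gave smaller ratios of Brd7. Of 9 other Wnt targets 8 had at least 10 CPM, and all 8 were higher by 1.5-fold or more in the mutant library. Of all 9789 genes 8.55% were, and the Wnt list was chosen with earlier results of these data known. Splitting mutant cells by Wif1 gave a Brd7 ratio of 2.81 (2.71 to 2.91). The ratio was 2.37 for Notum, which removes the lipid of Wnt ligands, 2.35 for the transcription factor Sp5, 2.20 for Rnf43 and 2.07 for Znrf3, a pair of ubiquitin ligases that clear frizzled receptors, 2.16 for Lef1, 2.11 for Axin2, 1.90 for Apcdd1 and 1.35 for Tcf7. These genes were detected in 2.28% (Tcf7) to 31.5% (Znrf3) of mutant cells and Nkd1 in 50.5%. To bring Nkd1 to a like share, cells with at least 2 Nkd1 UMIs (33.5%) were set against those with fewer, which gave 4.03 (3.88 to 4.19). Cells with at least 3 (23.3%) gave 3.61 (3.48 to 3.74). Both stood above the ratios of Wif1 (31.4% of cells), Znrf3 and Axin2 (25.2%). Nkd1 also had a higher level, at 461 CPM in the mutant, against 298 for Wif1, 208 for Znrf3 and 112 for Axin2. A like share of cells therefore does not make the splits alike, and the part of level in these ratios was not tested. In the control library, the Brd7 ratio lay between 0.990 and 1.25 for all 9 genes that could be used, and Sp5 (1.25, 1.13 to 1.36) was not below Nkd1 (1.21, 1.13 to 1.31). Arid2 had 1.62 by Znrf3 and 1.66 by Rnf43 in the mutant, the highest of its 10 ratios there, and 1.65 and 1.83 by the same genes in the control, with 68 Rnf43-positive control cells behind the last. Phf10 had 2.06 (1.43 to 2.88) by Tcf7 in the mutant, above the 1.35 of Brd7 and the exception to its order, and between 0.814 and 1.13 by the 9 other genes.

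In GENCODE M21 (GRCm38), Brd7 lies on the minus strand at chr8:88331039-88362194 and Nkd1 on the plus strand at chr8:88521354-88594884, so that the genes point away from each other with starts 159 kb apart. Pbrm1 is on chromosome 14, Arid2 on 15 and Phf10 on 17. No annotated gene overlaps Brd7. Of the genes counted here, Pbrm1 shares bases with Gnl3 and Smim4, and Phf10 with 1600012H06Rik, all on the opposite strand. Arid2 also overlaps a microRNA gene on its own strand, and Pbrm1 overlaps pseudogenes on the opposite strand, none of which were counted.

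The promoters of the neighbouring pair are shown because the genes moved together, with the 250 bases before the RefSeq start of each on GRCm38.p6, 5′ to 3′ on the strand of the gene. Capitals mark GGGCGG or its reverse complement, the core of a GC box. The Brd7 window is chr8:88362173-88362422 on the minus strand. The Nkd1 window, chr8:88527383-88527632 on the plus strand, lies at a RefSeq start inside the GENCODE gene and not at its outer end. Of the 4 subunits, 3 have a RefSeq window, and Arid2 is named only.
Brd7: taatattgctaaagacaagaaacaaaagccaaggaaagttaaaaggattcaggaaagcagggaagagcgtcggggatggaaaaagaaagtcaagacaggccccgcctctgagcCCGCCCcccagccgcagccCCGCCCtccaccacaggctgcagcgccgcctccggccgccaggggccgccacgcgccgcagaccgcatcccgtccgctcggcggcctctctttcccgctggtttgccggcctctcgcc
Nkd1: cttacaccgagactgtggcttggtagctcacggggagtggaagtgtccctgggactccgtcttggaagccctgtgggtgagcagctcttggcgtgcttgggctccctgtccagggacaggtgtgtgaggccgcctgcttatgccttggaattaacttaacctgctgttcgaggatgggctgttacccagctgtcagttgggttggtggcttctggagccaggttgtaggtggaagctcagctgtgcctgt

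The windows differ in kind. That of Brd7 has 64% G or C and 22 CpG dinucleotides, more than 85.2% of 32851 mouse promoters of this length, and that of Nkd1 has 58.4% and 6, which is also the median. The windows of Pbrm1 and Phf10 hold 31 and 51 CpG. The Brd7 window holds GGGCGG on its reverse strand at 2 places, 137 and 118 bases before the start, a word found on either strand in 32.7% of promoters. The words CTTTGAT and CTTTGTT, forms of the TCF/LEF binding motif, were searched on both strands and were absent from the windows of Brd7, Nkd1, Pbrm1 and Phf10. Both were also absent from the windows of Adcy7, Cyld and the Wnt targets Axin2, Wif1 and Lef1, while that of Sp5 held both. Their absence therefore does not set Brd7 and Nkd1 apart from these Wnt targets. The words occur in 3.21% and 5.03% of promoters. A word match is a description of letters and not of binding, and sites outside these windows were not searched.

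**Figure D5:**
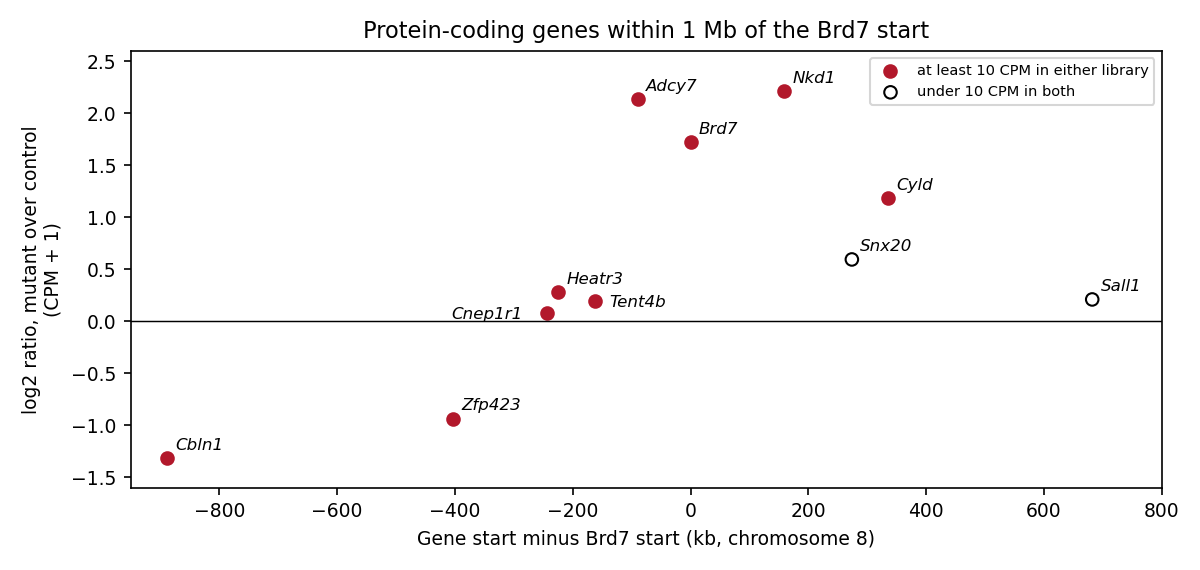
Log2 ratio of mutant over control CPM (pseudocount of 1) against the distance of each gene's start from that of Brd7, for protein-coding genes within 1 Mb that had at least 1 CPM in either library. The genes between Adcy7 and Cyld, with Brd7 and Nkd1 among them, are higher in the mutant, and Zfp423 and Cbln1 are lower.

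Genes next to Brd7 were not uniformly higher in the mutant. Within 1 Mb of its start 12 other protein-coding genes are annotated, and of the 8 with at least 10 CPM in a library, 3 were higher and 2 lower by 1.5-fold or more, where 8.55% of the 9789 genes were higher and 6.35% lower. The 3 were Adcy7, Cyld and Nkd1. Because Nkd1 was chosen with Brd7 on these same libraries, the count is a description. Adcy7, an adenylate cyclase whose gene ends 1.08 kb from the end of Brd7, had 12.6 CPM in mutant cells, against 2.09 in control cells, a ratio of 6.02 (5.39 to 6.75). The 3′ ends of Adcy7 and Brd7 face each other, and whether transcripts of one are counted for the other cannot be told from counts per gene, which holds for each Adcy7 ratio given here. Cyld, a deubiquitinase that starts 335 kb away on the far side of Nkd1, had 38.5 CPM, against 16.4, a ratio of 2.35 (2.25 to 2.46). Snx20, between Nkd1 and Cyld, had 2.34 CPM, against 1.21. Tent4b, Heatr3 and Cnep1r1, which start 163 to 243 kb away on the side of Adcy7, had ratios of 1.15, 1.23 and 1.06. Zfp423, a transcription factor 403 kb away, was lower at 41.0 CPM in mutant cells, against 79.5 in control cells, and Cbln1, a synaptic organiser of granule neurons, at 21.9 CPM, against 55.8.

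The neighbours that were higher also went with Nkd1 in single mutant cells. Adcy7 was 5.69-fold higher in mutant cells with Nkd1 (4.51 to 7.26), and 2.22-fold within clusters, where it ranked 13th of 9450 genes. Cyld was 1.94-fold higher and 1.45-fold within clusters, rank 158. Among the neighbours that did not reach 1.5-fold higher in the library comparison, Tent4b had a within-cluster ratio of 1.31, rank 406. The within-cluster ratio was 1.14 for Cnep1r1, 1.02 for Heatr3, 0.946 for Zfp423 and 0.861 for Cbln1. In the control library the within-cluster ratios were 1.1 for Adcy7, which had under 10 CPM there, 0.968 for Cyld, 1.15 for Tent4b, 0.991 for Cnep1r1, 1.14 for Heatr3, 1.15 for Zfp423 and 1.02 for Cbln1.

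Genes elsewhere had within-cluster ratios of like size in the mutant, led by Gbx2 (3.23), Cyp1b1, Cygb, Pycr1 and Prcd (2.70 to 2.61). The Wnt targets Sp5 (2.3), Notum (2.16), Wif1 (1.94), Rnf43 (1.77), Axin2 (1.58) and Lef1 (1.5) were among the higher genes as well. Brd7, at 2.29, stood between Sp5 and Notum in this order. In the pooled comparison of mutant cells, the 10 highest genes were Pycr1 (9.52), Gbx2, Cygb, Notum, Prss56, Cyp1b1, Prcd, Cdkn1a, Gna14 and Wif1 (6.31).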

How the data were processed

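The deposited values are raw UMI counts, 1 matrix for each library, made with Cell Ranger 7.0.1 on mm10, per the submitters' processing notes. The sources used here do not give the annotation release, intron counting or cell calling. The members, gene lists and settings were chosen with earlier results of these data known. Cells needed 1000 UMIs, 500 genes and at most 10% mitochondrial UMIs. Scrublet (scanpy 1.11.5, expected rate 16%) removed 896 mutant (5.44%) and 1019 control cells (6.06%), so doublets it missed remain. Leiden clusters (resolution 1, 2000 variable genes, 30 components, 15 neighbours) used none of the members, Nkd1, its neighbours, Wnt or SWI/SNF genes. Names needed 3 enriched markers, 50% of a list and a marker among the top 10 genes, thresholds set after seeing the data; 13 of 34 clusters were named. Levels are CPM of summed counts, log2 ratios add 1 CPM, and ranks use genes of at least 10 CPM. Cells under 3000 UMIs (2008 mutant, 2382 control) left the thinned comparisons. Intervals are exact Poisson, binomial or conditional binomial; combined ratios (Mantel-Haenszel) and ratios of ratios have approximate ones. Library ratios with their intervals, and the values of pooled and combined split ratios, were tried on simulated Poisson counts. The other calculations were not. Named genes were the members, Nkd1, neighbours within 1 Mb, the Wnt targets, the SWI/SNF ATPases, Brd9 and the 5 subunits furthest from no change. The 10 genes most like Brd7 (3 for each partner) and the 10 highest by Nkd1 ratio were named too. Smarcc1 and Actl6b were named as the ends of an order.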

Additional observations from a re-analysis of the deposited data

How the results depend on the processing

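No paired analysis was possible because each genotype has 1 library. Of the recomputed values 99 stayed within counting error or the stated tolerance, and 37 moved. No value past 1.5-fold changed direction. Among values under 1.5-fold, direction changed for the library ratio of Arid2 without mutant-dominated clusters and of Pbrm1 without the erythroid-like cluster or without haemoglobin and mitochondrial UMIs, and for the Nkd1 ratio of Phf10 in the mutant unthinned and in both libraries with every barcode kept. It also changed for the Nkd1 ratio of Arid2 in the control, whose interval holds 1, and for the control correlation of Phf10 without the erythroid-like cluster. Without mutant-dominated clusters the log2 library ratio was 0.43 for Brd7, -0.20 for Pbrm1, -0.26 for Arid2 and 0.25 for Phf10. Median-of-ratios scaling, which shifted all genes by 0.03, gave 1.69 for Brd7 and -0.051 for Pbrm1. Keeping every barcode and doublet gave 1.69 for Brd7, and leaving out the erythroid-like cluster 0.0052 for Pbrm1. Without a low-value filter, the percentile among genes was 34.7 for Pbrm1, 72.4 for Arid2 and 73.4 for Phf10.

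For the ratio between cells with and without Nkd1 in the mutant, Brd7 gave 3.28 with 1500 UMIs per cell, 4.68 unthinned, 5.28 with at least 2 Nkd1 UMIs against none, 2.29 within clusters and 5.57 with every barcode kept. The control ratio of Brd7 was 1.34 unthinned, 1.32 with at least 2 UMIs and 1.496 with every barcode kept. Pbrm1 gave 1.26 unthinned, 1.06 within clusters and 1.596 with every barcode kept in the mutant, and 1.03 within clusters and 1.402 with every barcode kept in the control. Arid2 gave 1.11 within clusters and 1.89 with every barcode kept in the mutant, and 1.23 with every barcode kept in the control. Phf10 gave 1.02 unthinned and 1.18 with every barcode kept in the mutant, and 1.01 with every barcode kept in the control. Doublets kept, the erythroid-like cluster or shared barcodes left out, and another random draw moved none of the main pooled ratios past their intervals. These settings were not combined with the split within clusters.

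For the cluster correlation with Nkd1 in the control, Leiden resolution 0.5 gave 0.54 for Pbrm1 and 0.44 for Arid2. Without the erythroid-like cluster, added after seeing the data, the mutant values were 0.47 for Pbrm1 and 0.54 for Arid2, and the control values 0.26, 0.094 and, for Phf10, -0.13. The cause of these moves was not tested. Low depth limits Phf10 most, since it was detected in 5.49% of mutant and 5.38% of control cells.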
